A study of Mus musculus with 20 samples.

Results

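A set of 2684 regions of the mouse genome carried the histone mark H3K4me3 in whole liver but almost none of it in embryonic stem (ES) cells. They are called ES-low domains here. They were found in bins of 1 kb on chromosomes 1 to 19, with each library scaled to its own depth on these chromosomes (RPM, the usual measure of reads relative to library size). A bin qualified with at least 4 RPM of liver H3K4me3 that was also at least 3 times the level of total histone H3 in liver (plus 0.1 RPM), and qualifying bins up to 1 kb apart were joined into a domain. Of the 15597 liver domains so formed, 2684 (17.2%) had ES H3K4me3 under 0.9 RPM in every bin, and the other 12913 did not. The domains were thus chosen by their measured liver H3K4me3, liver H3 and ES H3K4me3, and the values of these 3 libraries are given only as a description. The working name of the set, liver-specific, holds against ES cells alone, because no H3K4me3 library of another cell type was used here.

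The study mapped chromatin marks by chromatin immunoprecipitation and sequencing (ChIP-seq), in which DNA is recovered with an antibody to the histone mark or protein on it. Whole liver was perfused, dissociated, strained and spun at low speed per the labels, which give no strain, sex or age for the animals, and it gave 1 library each for H3K4me3, H3K27ac, H3K4me1, H3 and whole cell extract (WCE, the input before any antibody). ES cells of the hybrid line V6.5 (129JAE-C57/B6), taken off feeder cells before fixation, gave 1 library each for H3K4me3, H3 and WCE, and 2 each for H3K27ac and for p300, an acetyltransferase found at enhancers. ES H3K4me1 had 3 libraries, of which the first was plain V6.5, the second V6.5 with the dox inducible 4f2a transgene, and the third an inbred C57BL/6 line. Mouse embryonic fibroblasts (MEFs) gave H3K4me1 and H3, the iPS (induced pluripotent stem) line, reprogrammed from MEFs, gave H3K4me1, and neural progenitor cells (NPCs) derived from 129JAE-C57/B6 ES cells through embryoid bodies and kept in FGF and EGF gave H3K27ac and the transcription factor Rfx1. Every group outside the ES H3K4me1, H3K27ac and p300 groups was a single library. The labels do not say that the ES libraries came from separate cultures, so p-values measure the spread between ES libraries, which may be technical. For H3K4me1 this spread also holds the differences between the ES lines, which cannot be told apart from it.

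H3K4me3 is laid down around the start sites of genes whose promoters are active or open, and many broadly used promoters carry it in every cell type. H3K27ac, an acetyl mark, is found at active promoters and active enhancers. H3K4me1 marks enhancers, active or not, and the flanks of promoters, where it commonly gives way to H3K4me3 at the start site itself. Whole liver consists mostly of hepatocytes by mass, beside endothelial cells, Kupffer cells, stellate cells and bile duct cells, and its promoters and enhancers include those of blood protein, lipid and detoxification genes. The build of the files is not given in the sources used here, their positions lie within the chromosome lengths of the mm8 assembly, and the annotation used here was of another assembly, so coordinates are given as in the files and no gene is attached to a domain. The labelled tissue was not checked against marker genes for the same reason.

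The 20 libraries held 2452512 to 18216119 reads, and 694055 to 14280972 on chromosomes 1 to 19 after reads repeated at a position and strand were counted once. ES H3K4me3 and NPC Rfx1 stood apart with 70.0% and 72.5% repeated reads, against 1.48 to 20.7% in the other libraries. ES H3K4me3 kept 2319684 reads, so that 1 read in a bin is worth 0.431 RPM and the limit of 0.9 RPM admits at most 2 reads. A bin with no ES read still allows a level of up to 1.29 RPM (3 reads), above the limit itself, so an ES-low domain is one in which H3K4me3 was not detectable or very low at this depth. Liver H3K4me3, with 7894000 reads, needed 32 reads in a bin. Intervals and such limits cover counting error only, since the reads carry no molecular identifiers.

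The ES-low domains were narrow and spread over all 19 chromosomes tested. Of the 2684, 1777 (66.2%) were 1 kb wide, 524 were 2 kb and 383 (14.3%) were 3 kb or wider, up to 10 kb at 2 domains. Of the other liver domains, 25.6% were 1 kb and 30.6% were 3 kb or wider. Their share of the liver domains of a chromosome ran from 12.3% on chromosome 7 to 22.6% on chromosome 3, and their density from 0.863 per Mb on chromosome 14 to 1.88 per Mb on chromosome 19. Another ES-low domain lay within 20 kb of 502 (18.7%). The nearest liver domain outside the set was a median of 33 kb away, within 5 kb for 315 (11.7%) and over 50 kb for 1003 (37.4%). Chromosome 3 held 4 of them within 26 kb, at chr3:82058001-82084000, where they made up all the liver domains.

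By the rule, liver H3K4me3 was above and ES H3K4me3 below its limit. The liver level had a median of 6.59 RPM per kb (quartiles 4.94 to 10.5), against 23.8 in the other liver domains. Of the 4326 bins in the set, 2192 (50.7%) held no ES H3K4me3 read, 1270 (29.4%) held 1 and 864 (19.97%) held 2, a mean of 0.299 RPM per kb beside 0.455 over all bins with a read of ES H3. The ES limit cut through a crowded range, with 767 domains at 2 ES reads in their highest bin, just inside, and 488 at 3 reads, just outside. Just inside lay chr8:122322001-122327000, with 99.7 RPM of liver H3K4me3 in its highest bin, and chr2:32240001-32247000 with 89.2. Just outside lay chr11:78797001-78802000 with 107.8 and chr1:90043001-90047000 with 107.4. At the liver limit, 87 domains stood just inside at 4.05 RPM, such as chr1:13278001-13279000 and chr1:51801001-51802000, and 114 just outside at 3.93 RPM, such as chr1:91475001-91476000 and chr1:191807001-191808000.

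**Figure D1:**
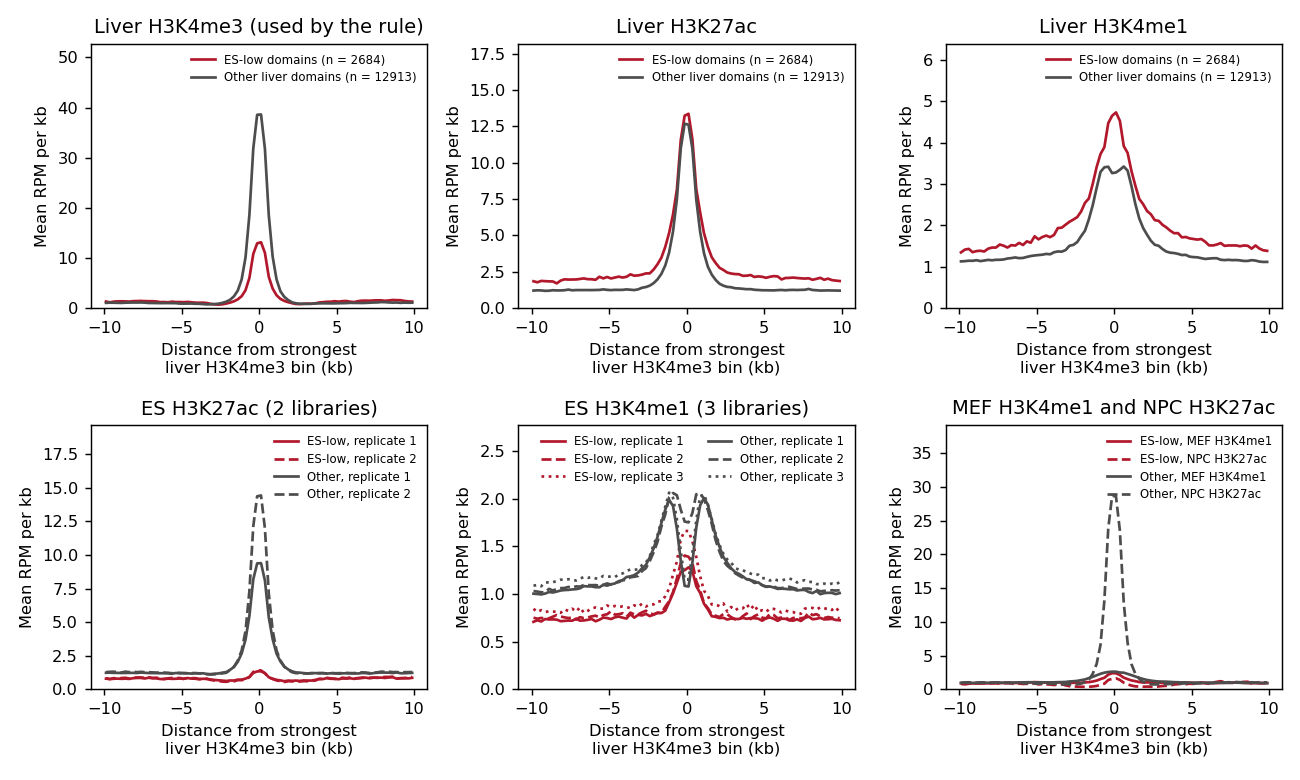
Mean level (RPM per kb) in steps of 250 bp within 10 kb of the strongest liver H3K4me3 bin, for the 2684 ES-low domains (red) and the 12913 other liver domains (grey), with each ES replicate as its own line. In the ES-low domains liver H3K27ac reaches 13.4 and ES H3K27ac at most 1.40, whereas in the other domains NPC H3K27ac reaches 28.7.

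Liver H3K27ac, which the rule did not use, was high at most ES-low domains. Its median was 8.71 RPM per kb (quartiles 3.66 to 16.3), against 7.53 in the other liver domains and against a liver WCE of 0.763 and a liver H3 of 0.467 at the same ES-low domains. A domain was said to hold a mark where at least 1 bin had 2 RPM and 3 times the H3 of the same cells (plus 0.1 RPM). For iPS cells and NPCs, ES H3 stood in for their own H3, and p300 and Rfx1 were set against ES WCE. By this measure 2252 of 2684 (83.9%, Wilson 95% interval 82.5 to 85.2) held liver H3K27ac, beside 82.8% of the other liver domains. The other liver domains were wider (25.6% of 1 kb, against 66.2%), so they had more bins in which any mark can be found. Shares of the 2 sets, here and below, were not matched for width. In bulk tissue, fewer cells with a mark and less of it per cell cannot be told apart. The mean within 500 bp of the strongest liver H3K4me3 bin was 12.4 RPM per kb, beside 1.89 at 8 to 10 kb, while liver WCE stood at 0.811 and 0.599. In the profiles around that bin, liver H3K27ac of the ES-low domains ran slightly above that of the other domains although their liver H3K4me3 was lower (12.0 against 35.2 within 500 bp).

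Domains with more liver H3K4me3 also held more liver H3K27ac. Over 4 equal parts of 671 domains ordered by liver H3K4me3, the median H3K27ac was 5.35, 6.54, 7.66 and 15.1 RPM per kb, and the share with the mark 72.3, 79.6, 87.5 and 96.3%. The highest part had a median width of 2 kb, against 1 kb in each of the others. Wider domains have more bins in which the mark can be found, and the parts were not matched for width. Spearman's rho between the levels was 0.343 over the 2684 domains, a description only, since domains of 1 library share its depth and base composition. H3K27ac was above H3K4me3 in RPM at 1276 domains (47.5%), against 5.55% of the other liver domains. Liver H3K4me3, which the rule used, had a median of 6.59 RPM per kb in the ES-low domains and 23.8 in the others. This contrast cannot be told apart from that difference and is a description only. Such ratios set 2 antibodies side by side and are no ratio of the marks themselves. No read of liver H3K27ac fell in 13 domains. The 5 of these highest in liver H3K4me3, led by chr1:6373001-6374000 and chr2:74473001-74474000, were all 1 kb wide, with 37 to 46 H3K4me3 reads and 0 to 5 WCE reads, and all of them had reads of liver H3K4me1 (15 to 47).

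**Figure D2:**
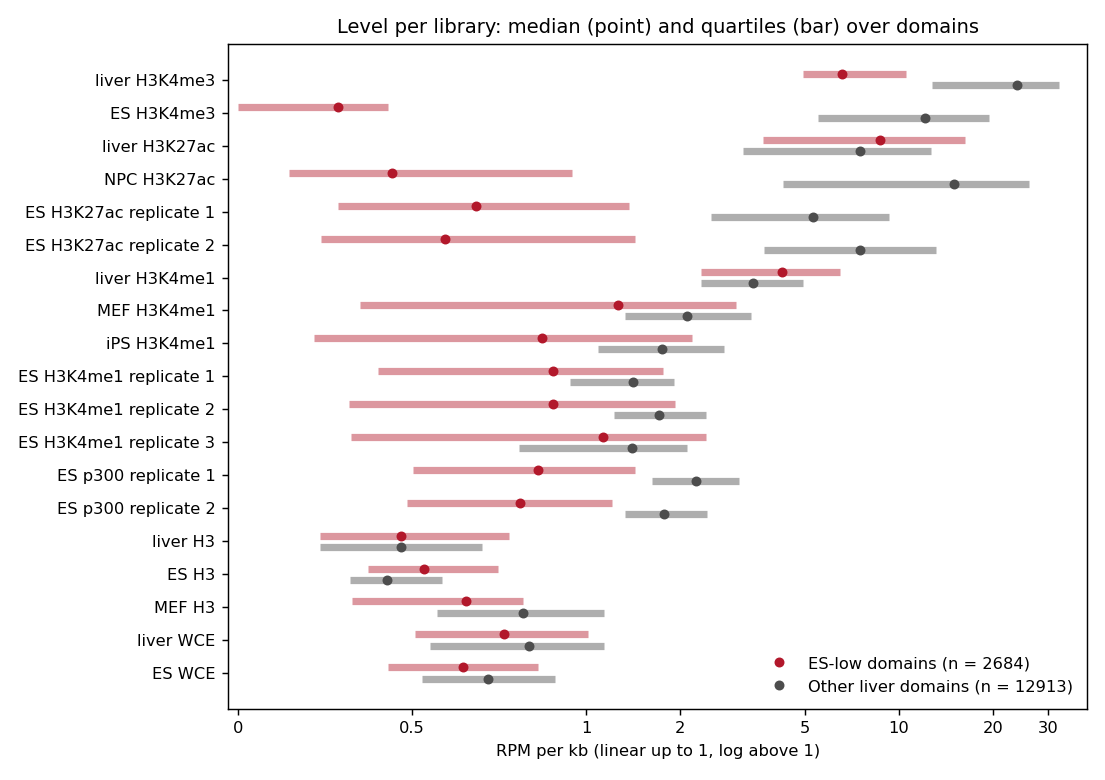
Median (point) and quartiles (bar) of the level in RPM per kb in each library except NPC Rfx1, for the ES-low domains (red) and the other liver domains (grey), on an axis that is linear up to 1 and logarithmic above. Liver H3K27ac has a median of 8.71 in the ES-low domains and 7.53 in the others, whereas NPC H3K27ac has a median of 0.440 in the ES-low domains and 15.0 in the others.

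Liver H3K4me1 was present as well, and its shape differed with the width of the domain. Its median over ES-low domains was 4.24 RPM per kb (quartiles 2.32 to 6.47), against 3.42 in the other liver domains, and 2086 domains (77.7%, 76.1 to 79.3) held the mark, against 87.1%. The level per kb and the share thus go in opposite directions, and the share favours the wider domains. Both H3K27ac and H3K4me1 were found in liver at 1821 domains (67.8%), H3K27ac alone at 431 (16.1%), H3K4me1 alone at 265 (9.87%) and neither at 167 (6.22%). Of the domains with neither, 93.4% were 1 kb wide. H3K4me1 was above H3K4me3 in RPM at 714 domains (26.6%), against 4.52% of the other liver domains. This contrast, too, cannot be told apart from the lower liver H3K4me3 of the ES-low domains.

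Around the 1777 domains of 1 kb, liver H3K4me1 formed a single summit, at 5.15 RPM per kb within 500 bp and 2.42 at 1 to 2 kb to either side. Around the 383 domains of 3 kb or wider it dipped to 2.45 in the centre and stood at 4.41 at 1 to 2 kb, with its highest step, 4.62, centred 1875 bp away. Liver H3K4me3 was 7.01 in the centre of the narrow and 32.1 in the centre of the wide domains, and liver H3K27ac 9.39 and 23.6. Liver H3K27ac was held by 77.5% of the 1 kb, 94.1% of the 2 kb and 99.5% of the wider domains, with medians of 6.73, 10.4 and 15.6 RPM per kb in the same order. Wider domains have more bins in which a mark can be found, but the medians are per kb. Width comes from liver H3K4me3 and was used by the rule, so these are descriptions with no test.

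**Figure D3:**
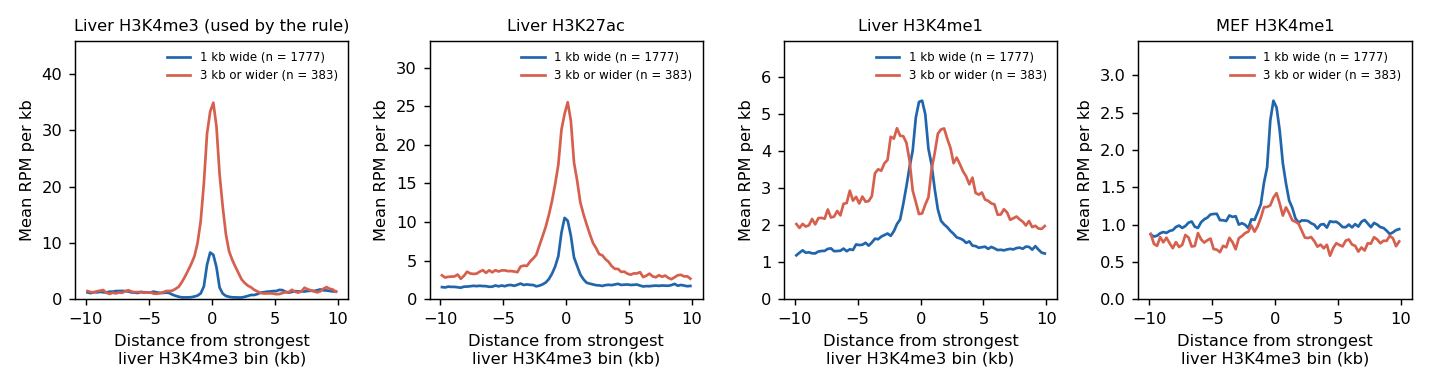
Mean level (RPM per kb) within 10 kb of the strongest liver H3K4me3 bin for ES-low domains of 1 kb (blue, n = 1777) and of 3 kb or wider (orange, n = 383). Liver H3K4me1 has a single summit at the narrow domains and a central dip of 2.45 between flanks of 4.41 at the wide ones, while MEF H3K4me1 is 2.47 and 1.33 in the centre.

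Some of the widest and the strongest domains are given here as single regions, by reads and levels over the whole domain. The 10 kb domain chr5:90525001-90535000, 422 kb from the next liver domain outside the set, held 1526 liver H3K4me3, 574 liver H3K27ac and 103 liver H3K4me1 reads. ES cells gave 3 H3K4me3 reads there, 6 and 8 H3K27ac reads, and 21, 19 and 10 H3K4me1 reads, MEFs gave 15 H3K4me1 reads and NPCs 6 H3K27ac reads. Per kb these levels in the other cell types were at most 0.211 RPM, below the ES H3 of 0.554 in the same domain. The other 10 kb domain, chr17:12221001-12231000, held 22.8 RPM per kb of liver H3K27ac and 4.33 of liver H3K4me1, with 0.251 and 0.143 of ES H3K27ac and 0.455 of NPC H3K27ac. The highest liver H3K4me3 per kb, 58.5 RPM, stood at chr9:121761001-121765000, where liver H3K27ac was 44.9, ES H3K27ac 0.741 and 0.893, and NPC H3K27ac 0.440. MEF H3K4me1 was 4.17 RPM per kb there, above the liver H3K4me1 of 3.14, so MEFs held a mark at this domain that ES cells (0.276, 0.399 and 0.363) did not.

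In ES cells most of these domains held neither H3K27ac nor H3K4me1. ES H3K27ac had medians of 0.684 and 0.595 RPM per kb in its 2 libraries, near the ES WCE of 0.647 and ES H3 of 0.533, whereas the other liver domains had 5.30 and 7.50. Both libraries held the mark at 340 ES-low domains (12.7%, 11.5 to 14.0), against 84.6% of the other liver domains, and neither did at 2146 (80.0%). ES H3K4me1 had medians of 0.905, 0.905 and 1.13, and at least 2 of the 3 libraries held it at 616 domains (23.0%, 21.4 to 24.6), against 42.8% of the others. All 3 held it at 354 (13.2%), and none at 1715 (63.9%). The sets were divided by ES H3K4me3, so the contrasts between them are given with no test.

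The ES states combined as follows. No ES library of either mark reached the limits at 1638 domains (61.0%). H3K4me1 without H3K27ac was found at 248 (9.24%), both marks at 263 (9.80%) and H3K27ac without H3K4me1 at 30 (1.12%), the rest being domains whose replicates differed. The share with liver H3K27ac was 85.7% where ES cells had no mark, 83.1% where they had H3K4me1 alone and 85.2% where they had both. It was 66.7% at the 30 domains with ES H3K27ac without H3K4me1, of which 86.7% were 1 kb wide. ES p300 was found by both libraries at 133 domains (4.96%), against 41.0% of the other liver domains, and at 17.2% of the 616 domains with ES H3K4me1.

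**Figure D4:**
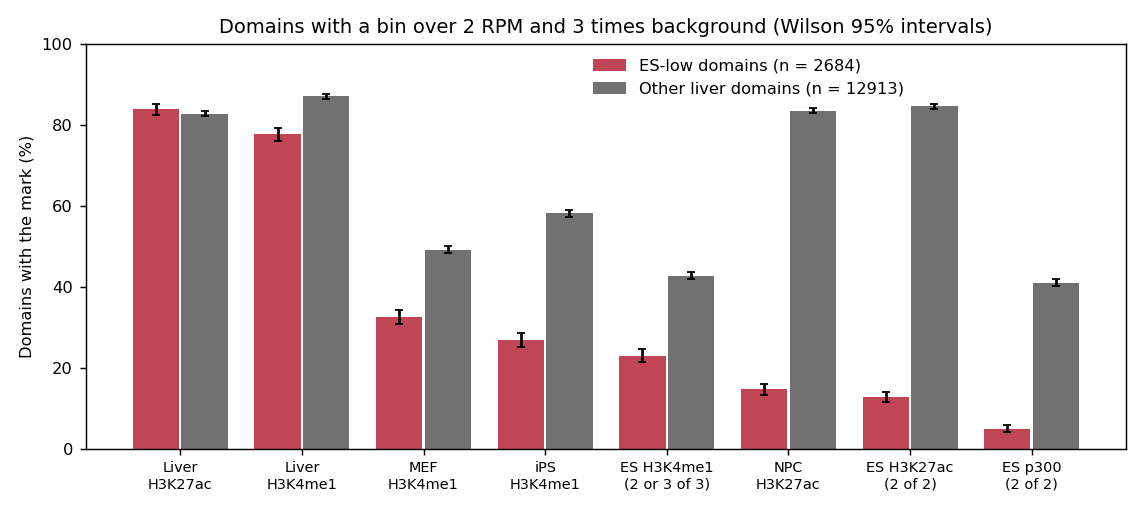
Share of the 2684 ES-low domains (red) and the 12913 other liver domains (grey) that hold each mark, with Wilson 95% intervals that cover counting error only. The 2 sets stand at 83.9% and 82.8% in liver H3K27ac, at 12.7% and 84.6% in ES H3K27ac and at 14.6% and 83.5% in NPC H3K27ac. The other liver domains are wider, which gives them more bins in which a mark can be found.

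H3K27ac was compared between liver and ES cells with limma over a table of all 17676 H3K4me3 domains of liver or ES cells. Of these, 17463 had at least 10 reads in 1 H3K27ac library, with 2554 of the 2684 ES-low domains among them, and 1045 of the 2554 passed only through liver, where a difference was thereby built in. Liver was higher than ES cells at 2073 ES-low domains and lower at 56, where 23.2% of all tested domains were called higher and 22.2% lower (limma, Benjamini-Hochberg adjusted p under 0.05). The median log2 difference was 3.38 in the ES-low domains tested and 0.04 over all domains tested. The 1045 supplied 1034 of the calls higher in liver and none of those lower, which cannot count as support. Among the other 1509, which had at least 10 reads in an ES or NPC library, 1039 (68.9%) were higher and 56 lower, with a median of 2.51. With no filter, 2127 of all 2684 were higher and 62 lower, with a median of 3.25, and the median of the ratio of summed reads, with groups without a read set to 3 reads, was 3.68 on the log2 scale. The median spread (SD) of the ES libraries was 0.28 on that scale. The fit has 1 residual degree of freedom and takes the single liver library to vary as the ES libraries do. Its prior degrees of freedom were estimated as infinite, so that each domain was given the common spread at its level, and very small p-values rest on that assumption.

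The largest called difference was at the 7 kb domain chr13:24333001-24340000. It held 942 liver H3K27ac reads against 5 and 2 in the ES libraries and 3 in NPCs, a log2 difference of 8.15, which was 8.45 without ES replicate 1 and 7.76 without replicate 2. Of the 5 largest, 4, this one included, passed the filter only through liver, so no p is given for them and their values are descriptions only. Liver H3K4me1 gave 118 reads there, MEF H3K4me1 97, and the ES H3K4me1 libraries 16, 8 and 1. On chromosome 4, a pair of neighbouring domains, chr4:49524001-49528000 and chr4:49566001-49571000, held 329 and 425 liver H3K27ac reads, against 1 and 1 in the ES libraries at the first and 4 and 2 at the second. Both were picked as extremes and passed the filter only through liver, so no fold or interval is given for them. MEF H3K4me1 was 0.0525 and 0.056 RPM per kb at these 2 domains, and NPC H3K27ac 0.0734 and 0.0587. The remaining 2 of the 5 largest were chr5:138210001-138216000 and chr17:32425001-32428000. The first, with 11 NPC reads, passed through a library other than liver and had a log2 difference of 7.22. The second passed only through liver, with 345 liver H3K27ac reads against 2 and 2 in the ES libraries, so no fold is given for it.

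At 56 tested domains H3K27ac was called lower in liver than in ES cells. The largest difference was at chr11:101588001-101589000, with no liver H3K27ac read against 51 and 52 in the ES libraries, at least 10.1-fold lower (3 reads in place of 0, limma adjusted p 5.14e-12). This 1 kb region also held 88 and 112 ES p300 reads, 91 MEF H3K4me1 reads and 39 liver H3K4me1 reads, and its liver H3K4me3 of 32 reads was at the limit of the rule. At chr2:118351001-118352000 liver had 5 H3K27ac reads against 91 and 68, 9.35-fold lower (3.92 to 29.2), and at chr15:102059001-102060000 it had 4 against 73 and 54, 9.34-fold lower (3.56 to 34.8). The latter held 63 and 50 p300 reads and 131 MEF H3K4me1 reads. At chr2:38480001-38481000 the ES libraries had 11 and 17 reads and NPCs 81, and at chr15:98600001-98601000 liver had 2 reads against 26 and 38. All 5 were 1 kb wide, with 32, 46, 32, 36 and 57 liver H3K4me3 reads in the order given, where 32 were needed. They were picked as the largest called falls, and the folds and intervals do not allow for that choice. The p-value rests on 1 liver library and on the common spread named above.

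In NPCs, H3K27ac was low at most ES-low domains. Its median was 0.440 RPM per kb, against 15.0 in the other liver domains, and 393 domains (14.6%, 13.4 to 16.03) held it. Of these, 105 also held it in both ES libraries and 236 (8.79% of all) in neither. H3K27ac was higher in NPCs than in ES cells at 279 (10.9%) of the 2554 tested domains and lower at 476 (18.6%), where 25.0% and 18.3% of all tested domains were called. The median log2 difference was -0.41 against 0.71 over all domains tested. The 1045 domains that passed only through liver had under 10 reads in every ES and NPC library, which leaves little room for a call here. Scaling by a trimmed mean of M-values, which moved the median over all domains to -0.14, called 179 higher and 934 lower. Liver was higher than NPCs at 2064 and lower at 74, where 22.0% and 26.2% of all tested domains were called, with a median of 3.88 against -0.79. Of the 2064, 1023 had passed the filter only through liver, and among the other 1509 tested domains 1041 were higher and 74 lower, with a median of 3.04. With no filter the counts were 2123 and 78. Liver and NPCs are single libraries, and their spread is taken from the ES pair. These 3 comparisons share libraries, so their calls were not set against each other.

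The domains with NPC H3K27ac often held MEF H3K4me1 too. MEF H3K4me1 was found at 64.4% of the 393, beside 32.6% of all ES-low domains, and ES H3K4me1 at 36.1%, beside 23.0%. The highest NPC level was at chr5:125429001-125430000, with 425 NPC H3K27ac reads against 46 and 69 in the ES libraries and 91 in liver, and 169 MEF H3K4me1 reads. Among the 5 domains highest in NPC H3K27ac, chr8:87684001-87685000 and chr19:46537001-46538000 were also among the 5 highest in MEF H3K4me1. The first held 346 NPC H3K27ac and 297 MEF H3K4me1 reads, with 83 of liver H3K4me1 and 65 of liver H3K27ac, but only 3 and 8 of ES H3K27ac and 4, 7 and 3 of ES H3K4me1. The second held 276 and 298, with 30 and 39 ES H3K27ac reads. Both are regions of 1 kb with modest liver H3K4me3 (40 and 49 reads).

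H3K4me1 was likewise compared over 17446 domains, of which 2571 were ES-low, and 407 of these passed only through liver. Liver was higher than ES cells at 1474 and lower at 35, where 33.9% and 3.28% of all tested domains were called. The median log2 difference of 1.81 has to be read against 1.08 over all domains tested, 0.73 above it. A trimmed mean of M-values brought the median of all domains to 0.05 and that of the ES-low domains to 0.81, and the calls to 350 higher and 58 lower. Without ES replicate 1, 800 were higher and 13 lower. Among the 2164 domains with at least 10 reads in a library other than liver, 1094 (50.6%) were higher and 35 lower, with a median of 1.53, the 407 having supplied 380 of the calls higher in liver. With no filter, 1444 of 2684 were higher and 34 lower.

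The largest H3K4me1 difference was at chr15:80510001-80511000, with 121 liver reads against 1, 1 and 0 in the ES libraries, 5 in MEFs and 1 in iPS cells, a log2 difference of 5.77. Of the 5 largest, 4, this one and the next included, passed the filter only through liver, so no p is given for them and their values are descriptions only. Next was the 5 kb domain chr17:34347001-34352000, with 138 liver reads against 0, 2 and 1. Liver H3K27ac gave 47 and 62 reads at these 2 domains. The remaining 3 of the 5 largest were chr1:195011001-195013000, chr11:4008001-4009000 and chr4:138570001-138571000, with 168, 91 and 163 liver reads. The 5 largest called in the other direction were all 1 kb wide, led by chr1:173226001-173227000, with no liver H3K4me1 read against 21, 35 and 29 in the ES libraries, at least 8.12-fold lower (limma adjusted p 0.00608). That region held 65 liver H3K4me3 and 27 liver H3K27ac reads. At chr4:94231001-94232000 and chr16:89706001-89707000 liver also had no H3K4me1 read, and at chr3:52041001-52042000 and chr14:54737001-54738000 it had 1. These falls, too, were picked as extremes from 1 liver library, and the fold given does not allow for that choice.

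MEFs held H3K4me1 at 875 of the ES-low domains. The MEF median was 1.26 RPM per kb (quartiles 0.350 to 3.01), beside a MEF H3 of 0.654, and the share with the mark was 32.6% (30.9 to 34.4), against 49.2% of the other liver domains. Of these, 349 also held it in at least 2 ES libraries, and 378 (14.1% of all) in none. ES cells but not MEFs held it at 267. The MEF library was the deepest of all. The limits are set in RPM, so counting noise at the limit differs between libraries of unlike depth, and its part in these shares was not tested. MEF H3K4me1 was higher than ES at 256 tested domains and lower at 137, where 5.62% and 2.66% of all tested domains were called. The 407 domains that passed only through liver had under 10 reads in every ES and MEF library, which leaves little room for a call here. The median log2 difference of 0.24 (0.47 over all domains tested) turned to -0.10 with a trimmed mean of M-values, with 136 higher and 187 lower, and without ES replicate 1 no domain was called (500 higher and 297 lower at an unadjusted limma p under 0.05). Without ES replicate 3, 603 were higher and 293 lower.

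The median MEF H3K4me1 was 1.47 RPM per kb at 1 kb, 1.28 at 2 kb and 0.385 at 3 kb or wider, while 32.5, 37.0 and 26.9% of these domains held the mark. The first ES H3K4me1 library had medians of 1.11, 0.804 and 0.436 in the same order. The highest was chr9:57436001-57437000, with 327 MEF reads, 125 liver H3K4me1 reads and 15, 13 and 22 ES reads. At chr9:102585001-102586000 the 301 MEF reads came with 136 in liver and 106, 93 and 55 in ES cells, together with 89 and 61 ES H3K27ac reads and 3 NPC H3K27ac reads. The 2 kb domain chr12:113045001-113047000 held 589 MEF reads, and liver H3K27ac of 172 reads. Liver H3K4me1 was higher than MEF at 657 domains and lower at 19, where 5.81% and 0.848% of all tested domains were called, with a median log2 difference of 1.36 (0.60 over all domains tested). With a trimmed mean of M-values 265 were higher and 35 lower, and without ES replicate 1, 0 were called in either direction (1122 and 71 at an unadjusted limma p under 0.05). Without ES replicate 3, 1156 were higher and 71 lower. Among the 2164 domains with at least 10 reads in a library other than liver, 385 were higher and 19 lower.

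The iPS cells had a median H3K4me1 of 0.872 RPM per kb at these domains and the mark at 722 of them (26.9%), against 58.2% of the other liver domains. No tested domain was called between iPS and ES cells by limma, where 0% of all tested domains were called in either direction, with 46 higher and 272 lower at an unadjusted p under 0.05, and 28 and 7 by limma-voom. Without ES replicate 3, 11 were higher and 130 lower. The iPS library held 2294246 distinct reads, so 1 read is worth 0.436 RPM, and the median log2 difference of -0.12 became 0.26 when groups without a read were set to 3 reads, so no direction is read from it.

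**Figure D5:**
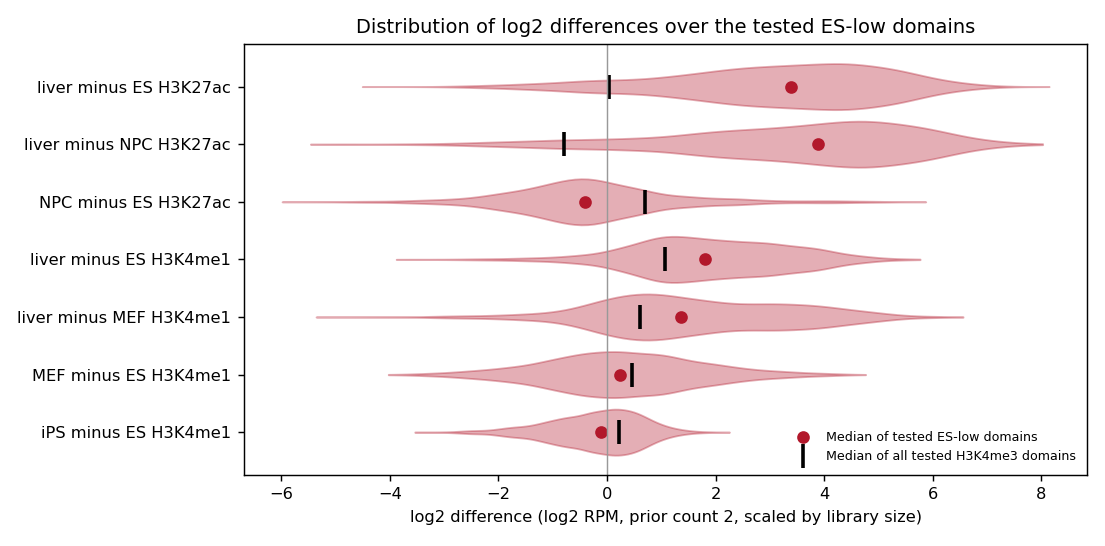
Distribution of log2 differences over the tested ES-low domains (2554 for H3K27ac, 2571 for H3K4me1) in the 7 comparisons, with the median of these domains (red point) and of all tested H3K4me3 domains (black bar), scaled by library size. The point lies far from the bar for liver against ES (3.38 and 0.04) and against NPC H3K27ac (3.88 and -0.79), and close to it for MEF against ES H3K4me1 (0.24 and 0.47). All comparisons of 1 mark share one fit, and all but 2 share the ES libraries. Of the tested ES-low domains, 1045 for H3K27ac and 407 for H3K4me1 passed the read filter only through liver.

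Many of the ES-low domains held neither mark in any of the ES, MEF and NPC libraries. There were 1222 (45.5%), against 1.90% of the other liver domains, and 86.2% of the 1222 held liver H3K27ac. Their mean liver H3K27ac within 500 bp of the strongest bin was 12.1 RPM per kb and their liver H3K4me1 3.80. They were selected on low ES, MEF and NPC marks, so the levels of those libraries there, such as 0.323 RPM per kb of NPC H3K27ac, only restate the selection. Of these domains 16.4% were 3 kb or wider, beside 14.3% of the whole set, and the next liver domain outside the set was a median of 44 kb away, beside 33 kb. Absence is by the limits above, and in MEFs only H3K4me1 and in NPCs only H3K27ac were used. Over all 2684 domains, the 1222 included, liver H3K27ac had almost no relation to NPC H3K27ac (Spearman's rho -0.06) or ES H3K27ac (0.055 and 0.004). NPC and ES H3K27ac were related (0.447 and 0.490). That relation was not particular to the set, since it was 0.547 and 0.619 in the other liver domains. There, liver H3K27ac had a rho of 0.283 with NPCs and of 0.327 and 0.289 with ES cells. All are descriptions over domains that share libraries.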

How the data were processed

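The deposited files list aligned reads of each library as signed positions per chromosome, where the sign gives the strand, per the file headers. These files thus hold no score per region. Aligner and build: not given in the sources used here. From the positions, reads on chromosomes 1 to 19 were counted once per position and strand, moved 100 bp toward the fragment centre, counted in 1 kb bins and scaled to RPM over such reads. iPS cells and NPCs had no H3 library here and were set against ES H3, and p300 and Rfx1 against ES WCE. Region counts were scaled by library size to log2 RPM with a prior count of 2, kept with at least 10 reads in 1 library of the mark, and fitted with limma-trend (limma 3.58.1, R 4.3.3), with Benjamini-Hochberg adjustment at 0.05. The test was tried on simulated data. Domains were counted with Python 3.11.15. The rule named the 5 domains highest in liver H3K4me3, MEF H3K4me1 and NPC H3K27ac, the 5 widest, the 5 lowest in liver H3K27ac, the 5 largest called differences in each direction between liver and ES cells for each mark, and 2 on each side of each limit, passing over chromosome 18. Replicate libraries differed by more than sampling noise (chi-square per degree of freedom 1.21 to 3.37) and were kept apart in the levels, shares and fits. The folds of named domains and the median ratio of summed reads used ES reads summed over libraries. The intervals of these folds do not cover the difference between replicates. The members and tests were chosen with earlier results of these data known.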

Additional observations from a re-analysis of the deposited data

Results flagged for a closer look

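Both results here come from data that the comparisons did not use. On chromosome X, outside the rule, 43 of 438 liver H3K4me3 domains (9.82%) were under the same ES limit, against 17.2% on chromosomes 1 to 19. They held liver H3K27ac at 31 domains (72.1%), with a median of 2.77 RPM per kb, above the liver WCE of 0.254. At the ES-low domains of chromosomes 1 to 19 the median liver WCE was 0.763, so the same limits are not alike on chromosome X. The sex of the animals is not given, and the part of copy number was not tested. NPC Rfx1 had a mean of 1.21 RPM per kb within 500 bp of the strongest liver H3K4me3 bin of the ES-low domains and 0.403 at 1 to 2 kb, while the ES WCE was 0.689 and 0.575, and at the other liver domains Rfx1 was 20.2. The Rfx1 library held 694055 distinct reads, so 1 read is worth 1.44 RPM. The region chr3:67462001-67463000 alone held 33 Rfx1 reads, and it was also among the 5 without liver H3K27ac named for their H3K4me3.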

How the results depend on the processing

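No paired analysis was possible because the groups compared are single libraries or share no replicate numbers. The number of ES-low domains was 1222 with a liver limit of 8 RPM, and within 1.5 times of 2684 under the other 5 rules tried (1890 to 2735). With mark limits of 1 and 4 RPM the share was 86.9 and 73.6% for liver H3K27ac, 83.6 and 59.1% for liver H3K4me1, 32.0 and 5.44% for ES H3K4me1, 17.2 and 5.25% for ES H3K27ac, 33.3 and 9.24% for iPS H3K4me1, 38.1 and 19.04% for MEF H3K4me1, and 17.7 and 8.90% for NPC H3K27ac. With a liver limit of 8 RPM it was 93.5% for liver H3K27ac, 73.1% for liver H3K4me1 and 30.4% for MEF H3K4me1. Restricted, after the data were seen, to domains of 2 kb or wider, it was 96.4% for liver H3K27ac, 81.0% for liver H3K4me1 and 9.70% for ES H3K27ac, and to domains over 5 kb from other liver domains, 21.1% for ES H3K4me1 and 25.2% for iPS H3K4me1. Leaving out 1 ES library, with all the remaining ones required, gave 14.5 to 18.9% for ES H3K4me1 and 15.2 to 17.5% for ES H3K27ac.

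A trimmed mean of M-values gave 179 higher and 934 lower for NPC against ES H3K27ac, 44 lower for liver against NPC, 350 higher and 58 lower for liver against ES H3K4me1, 136 higher for MEF against ES, whose median turned to -0.10, and 265 higher and 35 lower for liver against MEF. A prior count of 0.5 gave 136 higher for MEF against ES and 389 higher and 12 lower for liver against MEF. Limma-voom gave 545 higher for MEF against ES and 1076 higher and 44 lower for liver against MEF. Leaving out each ES library in turn gave 800 to 1793 higher and 13 to 46 lower for liver against ES H3K4me1, 0 to 603 higher and 0 to 293 lower for MEF against ES, 0 to 11 higher and 0 to 130 lower for iPS against ES, and 0 to 1156 higher and 0 to 71 lower for liver against MEF. For the comparisons of liver or MEFs the lowest counts came without replicate 1, plain V6.5, and the highest without replicate 3, the C57BL/6 line, and the cause was not tested. Counted after the data were seen among domains with at least 10 reads in a library other than liver, 1039 were higher for liver against ES H3K27ac, 1041 for liver against NPC and 385 for liver against MEF. Counts for liver against ES H3K27ac stayed within 1.5 times under the refits with another scaling, filter, prior count, tool or with repeated reads. For H3K27ac, leaving out an ES library leaves no residual degree of freedom, so only differences were recomputed, and the median for liver against ES was 3.35 and 3.41. Of the 10 named H3K27ac differences, 1 moved by more than the ES spread without replicate 1 and 4 without replicate 2, all keeping their direction. Low ES H3K4me3 depth, 2 reads at the limit, bounds what membership can show.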
